A study of Mus musculus with 8 samples.

Results

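The 48 genes described here were listed as genes of stromal feeder cells and extracellular matrix: niche factors, collagens, matrix glycoproteins, matrix enzymes and contractile proteins. No RNA of feeder cells alone was measured, so which cells made each transcript was not tested. A gene was included when a non-control probe of the array carried its name, and all 48 listed genes had one, among 27845 named features in all. Where a gene had several probes, as 28 of the 48 did (86 probes in total), the brightest one over all arrays was used and the others were checked. All 48 were measured well above background in at least 1 comparison, and 38 of them in all 16 channels, that is, in both RNAs on every array.

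RNA came from mouse bone marrow-derived Pax5-/- pro/preB cells, B cell precursors without the transcription factor Pax5, grown with IL-7 on gamma-irradiated OP9 stromal cells. Clone 4, a single clone with the human Pax5 transgene (huPax5), received doxycycline at 10, 300 or 1000 ng/ml. Pax5sz2 cells carried rtTA, the doxycycline-dependent transactivator, without huPax5, and received doxycycline at a dose that the labels leave out. The reference in every comparison was RNA of clone 4 huPax5 without doxycycline (0 ng/ml). All groups thus share the Pax5 deletion and the feeder, and the 4 comparisons share that kind of control. Per the labels' protocols the huPax5 vector and the rtTA vector were retroviral and separately selected. Each pair of RNAs was hybridised on 2 two-colour arrays with the dyes exchanged: array 1 has the named RNA in Cy5 and array 2 has it in Cy3. A comparison is therefore 1 RNA against 1 RNA with technical repeats only, the number of arrays limits the precision, and single comparisons have no test. A gene is called higher or lower when its log2 ratio of named RNA over control reached 1 (2-fold) in the same direction on both arrays, and errors are the SD of the 2 arrays (n = 2, technical).

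OP9 is a bone marrow-type stromal line with preadipocyte properties that supports lymphoid progenitors through soluble factors, adhesion molecules and matrix. In the marrow niche such cells make Cxcl12, which holds progenitors near the stroma through the receptor Cxcr4, together with IL-7, Kit ligand and Vcam1, while fibrillar collagens are folded with the help of Serpinh1 and later cut by membrane and secreted metalloproteinases. B cell precursors make little of the fibrillar collagens, whereas some listed genes, Lgals1, S100a6 and Timp2 among them, are also made by blood cells. In such bulk RNA, fewer cells of a type and less RNA per cell cannot be told apart.

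RefSeq promoter windows were found for 32 of the 48 genes, each running 250 bases before to 50 bases after the start of the gene in the build GRCm38.p6. The windows of 5 genes are shown: Cxcl12 and Col3a1, which were among the 4 highest members at 10 and 300 ng/ml doxycycline but below the members' median at 1000 ng/ml as labelled, Mmp14, which was lower in Pax5sz2, and Col4a1 and Col4a2, which start head to head and overlap by 78 bases but differed in Pax5sz2. Capitals mark the TATA box letters TATAAA, the CCAAT box letters CCAAT and the GC box letters GGGCGG, each searched on both strands, and matches may overlap. The windows lie at chr6:117168285-117168584 (+) for Cxcl12, chr1:45311288-45311587 (+) for Col3a1, chr8:11312777-11313076 (-) for Col4a1, chr8:11312555-11312854 (+) for Col4a2 and chr14:54431348-54431647 (+) for Mmp14.
Cxcl12: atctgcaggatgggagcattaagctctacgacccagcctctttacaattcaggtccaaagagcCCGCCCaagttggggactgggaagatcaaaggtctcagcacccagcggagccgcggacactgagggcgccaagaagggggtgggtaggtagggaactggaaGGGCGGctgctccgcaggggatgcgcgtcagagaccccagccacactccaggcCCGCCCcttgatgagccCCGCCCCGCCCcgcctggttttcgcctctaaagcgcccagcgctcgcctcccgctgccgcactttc
Col3a1: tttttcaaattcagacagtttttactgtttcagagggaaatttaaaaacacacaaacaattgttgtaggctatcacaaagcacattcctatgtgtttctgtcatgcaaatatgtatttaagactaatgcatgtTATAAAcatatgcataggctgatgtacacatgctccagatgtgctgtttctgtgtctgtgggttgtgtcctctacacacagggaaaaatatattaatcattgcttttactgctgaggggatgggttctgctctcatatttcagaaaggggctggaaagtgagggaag
Col4a1: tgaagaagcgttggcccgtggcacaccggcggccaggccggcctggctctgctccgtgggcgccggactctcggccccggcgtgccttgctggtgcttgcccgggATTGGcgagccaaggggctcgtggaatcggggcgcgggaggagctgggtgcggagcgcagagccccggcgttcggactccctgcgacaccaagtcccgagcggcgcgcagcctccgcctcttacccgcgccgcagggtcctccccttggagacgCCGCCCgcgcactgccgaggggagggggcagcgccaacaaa
Col4a2: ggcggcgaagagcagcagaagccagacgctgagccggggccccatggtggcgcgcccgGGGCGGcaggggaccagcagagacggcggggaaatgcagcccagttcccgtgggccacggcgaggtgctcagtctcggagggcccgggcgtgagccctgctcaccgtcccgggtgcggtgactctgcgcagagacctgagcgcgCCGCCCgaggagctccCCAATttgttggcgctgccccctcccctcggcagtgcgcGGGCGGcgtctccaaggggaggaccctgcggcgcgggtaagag
Mmp14: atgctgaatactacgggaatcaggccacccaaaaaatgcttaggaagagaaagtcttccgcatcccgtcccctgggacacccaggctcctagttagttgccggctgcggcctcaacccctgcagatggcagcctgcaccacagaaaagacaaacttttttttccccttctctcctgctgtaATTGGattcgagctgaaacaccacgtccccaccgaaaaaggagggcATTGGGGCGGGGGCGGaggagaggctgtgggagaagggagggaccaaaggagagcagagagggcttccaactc

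The Cxcl12 window held 5 GGGCGG matches and no TATAAA or CCAAT, and 64.7% of its bases were G or C. The Col3a1 window held 1 TATAAA, no match of the other motifs, and 37.7% G or C. The Mmp14 window held 2 CCAAT and 2 GGGCGG matches. The 32 genes had 36 windows, of which 8 held TATAAA (22.2%), 10 CCAAT (27.8%) and 22 GGGCGG (61.1%), against 13.6%, 37.4% and 35.7% of all 32851 windows in the table. These matches describe the letters of the windows only.

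Between 40.4% and 75.5% of the non-control spots of a channel were well above background, and no spot was saturated. The 1000 ng/ml pair was scanned in an earlier batch on rehybridised slides with older settings, so batch and dose cannot be told apart there. Set against the 300 ng/ml comparison over all probes, array 1 with array 1 and array 2 with array 2, it gave correlations of -0.359 and -0.460. The direction of the 1000 ng/ml pair is therefore not settled: its values are given as labelled, and with the sign turned every direction reverses. The mouse Pax5 probe for NM_008782 read -0.11 ± 0.06 with 10 ng/ml, 0.23 ± 0.07 with 300 ng/ml and -0.27 ± 0.03 in Pax5sz2, and the one for AK040987 read 2.66 ± 0.20, 2.36 ± 0.06 and 3.02 ± 0.19. At 1000 ng/ml the named RNA was not well above background for either, and neither probe checks the human transgene. Among markers of the labelled cells, Vpreb1 and Igll1, the surrogate light chain genes, had log2 levels of 6.07 to 7.32 and 6.09 to 6.67 in both RNAs on the arrays of the 3 doses, where they were at or near background. They were bright in Pax5sz2 RNA, at 17.84 and 17.79 for Vpreb1 and 14.65 and 14.01 for Igll1, against 9.29 and 10.57 and 8.69 and 8.66 in clone 4 without doxycycline on those arrays. The control, clone 4 without doxycycline on every array, thus read higher for both genes beside Pax5sz2 RNA than elsewhere. Whether all arrays had the same preparation of it was not tested. The control levels and ratios of both genes on the Pax5sz2 arrays are uncertain. Both were named after their values were seen, from a list of 18 B precursor markers. In Pax5sz2 they were the only 2 of the 18 that were higher, while 3 were lower and 10 were below 0 on both arrays.

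At 10 ng/ml doxycycline 5 of the 48 members were higher and 0 were lower than without doxycycline, where 0.596% of the 20127 features tested were higher and 1.27% lower. The 5 were Cxcl12, Vcam1, Col3a1, Serpinh1 and Cyr61. At 300 ng/ml 10 members were higher and 0 lower, where 1.3% of all features were higher and 2.36% lower. These 10 were Cxcl12, Vcam1, Pdgfra, Pdgfrb, Col1a1, Col3a1, Col5a2, Col6a3, Sparc and Serpinh1. The median log2 ratio of the members was 0.56 at 10 ng/ml and 0.60 at 300 ng/ml, against 0.01 and 0.00 for all features. At any size, 38 members were above 0 on both arrays at 10 ng/ml and 33 at 300 ng/ml, where 38.6% and 35.8% of all features were. The members were chosen with earlier results of these data known. Their excess over all features, here and below, therefore describes the list and is no test of it.

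In the 1000 ng/ml pair 1 member, Mmp14, was higher as labelled and 0 were lower, where 1.93% of all features were higher and 0.636% lower. The members' median there was -0.03, against 0.00 for all features, and 13 of 48 were above 0 on both arrays, where 33.7% of all features were. In Pax5sz2, 4 members were higher than in clone 4 without doxycycline (Cxcl12, Vcam1, Col5a2 and Sparc) and 2 were lower (Mmp14 and Acta2), where 2.33% of all features were higher and 2.83% lower. The members' median was 0.02, against 0.03 for all features, and 20 of 48 were above 0 on both arrays, where 41.8% of all features were. Among these 20, Il7 and Lum were tested only because the Pax5sz2 RNA passed the background flag on both arrays. Their values above 0 there are therefore no support for a difference. Over the 4 comparisons 35 members were past the size in none.

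The summed intensity of the members did not separate the RNAs at the lower doses. It was 193935 and 200854 with 10 ng/ml, against 167473 and 204464 without, and 201419 and 184098 with 300 ng/ml, against 198651 and 200753 (Col1a2 left out on array 1). In Pax5sz2 it was 163704 and 149282, against 200187 and 206049. In the 1000 ng/ml pair as labelled it was 202131 and 194036, against 129023 and 134293. The 3 brightest members, Lgals1, Mmp14 and Acta2, held between 50.2% and 79.7% of these sums. Without these 3, a choice made after the sums were seen, it was 70705 and 81473 with 10 ng/ml, against 43314 and 44811, and 81078 and 91631 with 300 ng/ml, against 40321 and 42847. In Pax5sz2 it was then 61516 and 65192, against 46714 and 45013. In the 1000 ng/ml pair as labelled it was then 47868 and 43926, against 51084 and 45371.

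**Figure D1:**
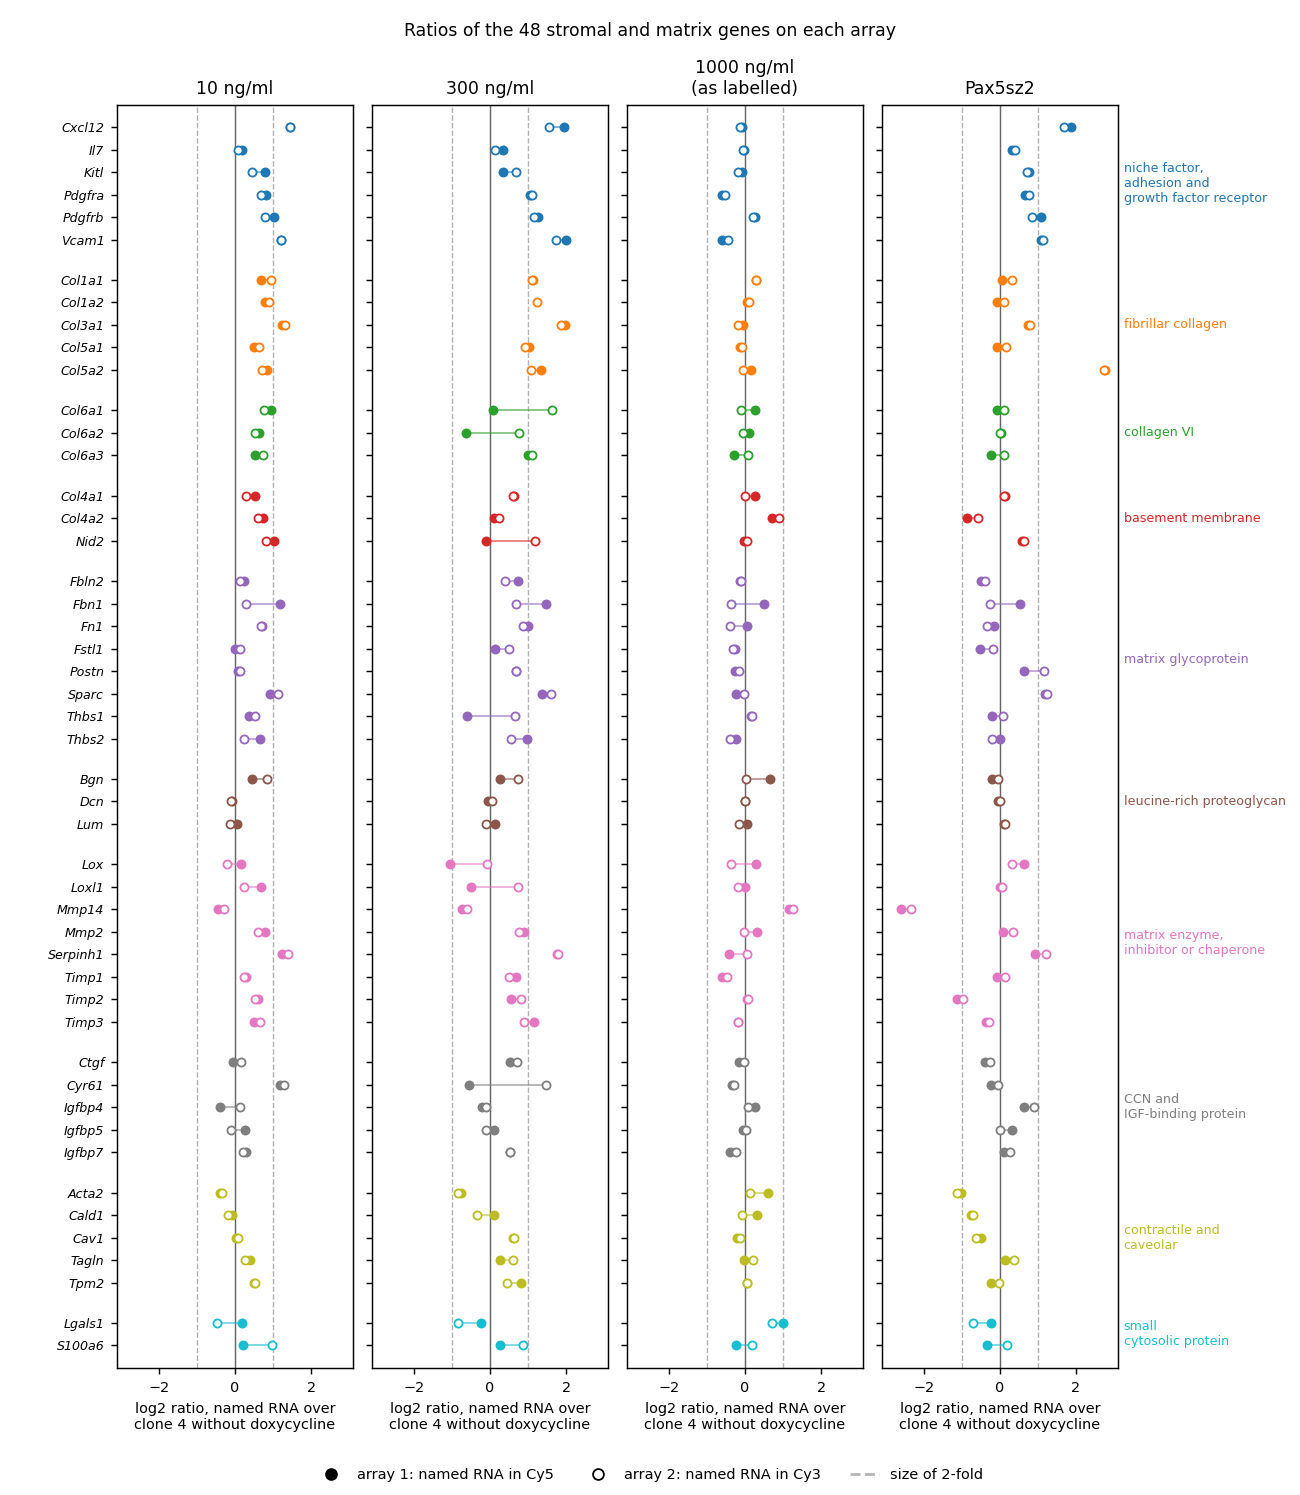
Log2 ratio of each of the 48 members on each array, named RNA over clone 4 without doxycycline (x axis), in the 4 comparisons, with genes on the y axis grouped by role. Filled points are array 1 and open points array 2, a line joins the 2 arrays, and dashed lines mark 2-fold. Most genes lie right of 0 at 10 and 300 ng/ml, 1 gene (Mmp14) passes the size at 1000 ng/ml, and the Pax5sz2 values spread both ways.

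**Figure D2:**
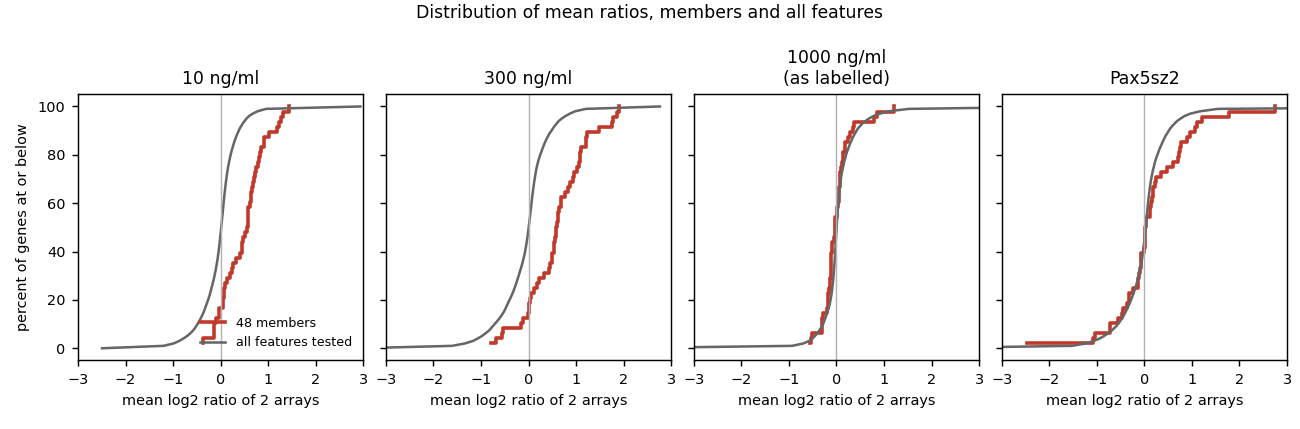
Cumulative percent of genes (y axis) at or below each mean log2 ratio of the 2 arrays (x axis) for the 48 members and all 20127 features tested, cut at -3 and 3. The members' curve is shifted to the right at 10 and 300 ng/ml (medians 0.56 and 0.60) and lies close to that of all features at the median in the 1000 ng/ml and Pax5sz2 comparisons.

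The 6 niche, adhesion and receptor genes held 2 of the 5 members higher at 10 ng/ml, 4 of the 10 at 300 ng/ml and 2 of the 4 in Pax5sz2. All 6 were above 0 on both arrays at 10 and 300 ng/ml and in Pax5sz2, as were 38.6%, 35.8% and 41.8% of all features. Their medians were 0.82, 1.14 and 0.85. Il7, tested only through the Pax5sz2 RNA, is no support in Pax5sz2. At 1000 ng/ml as labelled 5 of 6 were below 0 on both arrays, as were 6146 of the 20127 features. Kitl and Il7, among these 5, were not well above background in any channel there, and Il7 was near background at 10 and 300 ng/ml as well. Cxcl12, the chemokine of the niche, had log2 levels of 13.72 and 13.93 with 10 ng/ml, against 12.28 and 12.47 without. With 300 ng/ml it had 14.37 and 14.05, against 12.42 and 12.49 without. In Pax5sz2 it had 14.25 on both arrays, against 12.38 and 12.56 in clone 4 without doxycycline. The named and control RNAs did not overlap in any of these. The mean ratios were 1.45 ± 0.01, 1.75 ± 0.28 and 1.78 ± 0.12, or 2.72-fold, 3.36-fold and 3.44-fold. At 1000 ng/ml it had 12.80 and 12.64, against 12.89 and 12.77, and its ratio was -0.11 ± 0.03. A second Cxcl12 probe, for another transcript accession, read 0.90, 1.22, -0.25 and 1.25 in the comparisons of 10, 300 and 1000 ng/ml and of Pax5sz2.

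Vcam1, the ligand of the integrin VLA-4 on progenitors, was 2.29-fold higher at 10 ng/ml (1.20 on both arrays), 3.64-fold higher at 300 ng/ml (2.00 and 1.72) and 2.15-fold higher in Pax5sz2 (1.07 and 1.14). Its level without doxycycline stayed within 8.27 and 8.37 on the 6 later arrays. A dimmer Vcam1 probe read 0.12, 0.44 and 0.20 in these comparisons, inside 0.5 of 0. Pdgfra and Pdgfrb, the platelet-derived growth factor receptors of mesenchymal cells, passed the size at 300 ng/ml, with 1.05 and 1.09 for Pdgfra and 1.26 and 1.15 for Pdgfrb. At 10 ng/ml Pdgfra read 0.81 and 0.68 and Pdgfrb 1.03 and 0.78, and in Pax5sz2 Pdgfra read 0.66 and 0.77 and Pdgfrb 1.07 and 0.83. Kitl, the ligand of Kit, had mean ratios of 0.63, 0.50 and 0.74 in these 3 comparisons, none past the size. Il7 was near background, with 4 of 16 channels above it. Its ratio in Pax5sz2 was 0.35 ± 0.06, against a control that was not well above background. With that control set no lower than the lowest level well above background on each array, this is 1.20-fold, not a firm bound. Il7 was tested only because the Pax5sz2 RNA passed the background flag on both arrays. Its higher value there is therefore no support for a difference.

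The fibrillar collagens, the main tensile proteins of the matrix, followed at 10 and 300 ng/ml. Col3a1 had log2 levels of 11.39 and 11.61 with 10 ng/ml, against 10.15 and 10.30 without, and 12.29 and 12.18 with 300 ng/ml, against 10.33 and 10.31 without. Its ratios were 1.27 ± 0.05 (2.42-fold) and 1.91 ± 0.06 (3.77-fold), the highest of any member at 300 ng/ml. A second, dim Col3a1 probe read -0.04 and -0.02. Col1a1 was at 0.68 and 0.93 at 10 ng/ml and at 1.12 and 1.09 at 300 ng/ml (2.15-fold), and its 2 dimmer probes read 0.37 and 0.10 at 300 ng/ml. Col1a2 was at 0.79 and 0.88 at 10 ng/ml, and at 1.22 at 300 ng/ml on the 1 array where its spot was kept, so it was not called there. Col5a1 was just short of the size at 300 ng/ml, at 1.01 and 0.91.

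Col5a2, the minor collagen that joins type I fibrils, stood apart in Pax5sz2. Its log2 levels there were 10.65 and 10.59, against 7.89 and 7.86 in clone 4 without doxycycline, and the ratio was 2.75 ± 0.02, or 6.71-fold. At 10 ng/ml it was at 0.85 and 0.72 and at 300 ng/ml at 1.34 and 1.08 (2.31-fold). The other 4 fibrillar collagens had Pax5sz2 ratios of 0.75 for Col3a1, 0.18 for Col1a1, 0.03 for Col5a1 and 0.01 for Col1a2. The Col5a2 and Col3a1 probes lie 28.0 kb apart on chromosome 1 (mm8), on opposite strands.

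Collagen VI, the beaded-filament collagen, had 10 ng/ml ratios of 0.85 for Col6a1, 0.57 for Col6a2 and 0.63 for Col6a3. All 3 were above 0 on both arrays, as were 38.6% of all features. At 300 ng/ml Col6a3 passed the size with 1.01 and 1.11, whereas Col6a1 read 0.09 and 1.64 and Col6a2 -0.64 and 0.75 on the 2 arrays. A second Col6a2 probe elsewhere on the array read 1.31 and 1.22. In the 1000 ng/ml pair and in Pax5sz2 all 3 had arrays on opposite sides of 0, with means between -0.11 and 0.08. So had 7121 and 4607 of the 20127 features.

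Of the basement membrane genes, none was past the size. Col4a2 read 0.67 ± 0.10 with 10 ng/ml and 0.17 ± 0.08 with 300 ng/ml, and in Pax5sz2 at -0.86 and -0.57 (mean -0.72), with a second probe at -0.44. Col4a1, its partner chain whose promoter window overlaps with it, was at 0.40, 0.62 and 0.11 ± 0.02 in these comparisons, with a second probe at -0.09 in Pax5sz2. At 1000 ng/ml as labelled Col4a2 was at 0.80 ± 0.12 against a control that was not well above background. With that control set no lower than the lowest level well above background on each array, this is 1.58-fold, not a firm bound. Nid2, a linker of laminin and collagen IV, read 1.02 and 0.82 at 10 ng/ml, -0.12 and 1.19 at 300 ng/ml, and 0.57 and 0.64 in Pax5sz2.

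Among the 8 matrix glycoproteins all were above 0 on both arrays at 10 ng/ml and 7 at 300 ng/ml, where 38.6% and 35.8% of all features were. Their medians were 0.45 and 0.72. Sparc, a collagen-binding protein, had log2 levels of 11.01 and 11.15 with 300 ng/ml, against 9.66 and 9.56 without, and 10.69 and 10.57 in Pax5sz2, against 9.50 and 9.34. Its ratios were 1.47 ± 0.16 (2.78-fold) and 1.21 ± 0.02 (2.31-fold), and at 10 ng/ml it read 0.93 and 1.13. A second Sparc probe of nearly the same brightness read 0.49 at 10 ng/ml and 0.66 at 300 ng/ml, but -0.17 and -0.04 in Pax5sz2, so the Pax5sz2 call rests on 1 of 2 probes. Fn1, fibronectin, was at 0.69 and 0.93 at 10 and 300 ng/ml and at -0.24 in Pax5sz2. Postn, periostin, was at 0.09, 0.68 and 0.89 in these, with 0.62 and 1.16 on the Pax5sz2 arrays. The fibrillin gene Fbn1 had arrays far apart, with array 1 (named RNA in Cy5) above array 2 in every comparison. It read 1.17 and 0.28 at 10 ng/ml and 1.46 and 0.69 at 300 ng/ml. At 1000 ng/ml as labelled it read 0.50 and -0.36, and in Pax5sz2 0.53 and -0.27. Fbln2, fibulin-2, and Fstl1, a follistatin-like protein, were at 0.57 and 0.32 at 300 ng/ml and at -0.45 and -0.37 in Pax5sz2, and Thbs2, thrombospondin-2, at 0.76 and -0.10. Of the leucine-rich proteoglycans, Lum and Dcn were near background, with 3 and 7 of 16 channels above it, and Bgn was at 0.64 and 0.50 at 10 and 300 ng/ml.

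Serpinh1, the collagen chaperone also known as Hsp47, was among the 3 highest members at both lower doses. It had log2 levels of 11.66 and 11.68 with 10 ng/ml, against 10.43 and 10.28 without, and 12.40 and 12.17 with 300 ng/ml, against 10.63 and 10.39. The ratios were 1.31 ± 0.11 (2.48-fold) and 1.78 ± 0.01 (3.43-fold). In Pax5sz2 it read 0.93 and 1.21, just short on 1 array. The gelatinase gene Mmp2 was at 0.70 and 0.83 at 10 and 300 ng/ml, and the metalloproteinase inhibitors Timp2 and Timp3 were at 0.57 and 0.58 at 10 ng/ml and 0.68 and 1.03 at 300 ng/ml. Timp1, another inhibitor, was at 0.25 and 0.59 at these doses. In Pax5sz2 Timp2 read -1.13 and -0.96, short of the size on 1 array, and Timp3 -0.36 and -0.28.

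Mmp14, a membrane-anchored collagenase, differed from most members in direction. Its log2 levels in Pax5sz2 were 12.54 and 12.49, against 15.14 and 14.83 in clone 4 without doxycycline, a ratio of -2.47 ± 0.19 (0.18-fold). A second probe read -2.50 and -2.31. At 10 ng/ml it had 14.56 and 14.79, against 15.01 and 15.08, and at 300 ng/ml 14.76 and 14.72, against 15.50 and 15.32, with ratios of -0.37 and -0.67, short of the size. At 1000 ng/ml it had 14.24 and 14.91, against 13.09 and 13.65, a ratio of 1.20 ± 0.08 as labelled and -1.20 with the sign turned, and the second probe read 1.08 and 0.69. Acta2, smooth muscle actin, was also lower in Pax5sz2, at -1.02 and -1.13, and read -0.37 and -0.80 at 10 and 300 ng/ml and 0.37 at 1000 ng/ml as labelled. Its 4 other probes, 3 of them tested, were between -0.23 and 0.17 in Pax5sz2, so that call rests on 1 of the 4 tested probes. Lgals1, galectin-1, had ratios of -0.15, -0.53 and 0.86 at the 3 doses, low to high, and -0.47 in Pax5sz2.

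The contractile and caveolar genes were otherwise mixed, with Tpm2, a tropomyosin gene, at 0.51 and 0.64 at the lower doses, Cav1, which forms caveolae, at 0.06 and 0.61, and Tagln at 0.33 and 0.43. In Pax5sz2 4 of the 5 were below 0 on both arrays (median -0.56), as were 7106 of the 20127 features. Cald1, which binds actin, was at -0.72 and Cav1 at -0.56, while a dimmer Cald1 probe read 0.10. Of the CCN and IGF-binding proteins, secreted modulators of growth factors, Cyr61 (now named Ccn1) was higher at 10 ng/ml, at 1.18 and 1.29 (2.36-fold), whereas Ctgf (now Ccn2) read -0.06 and 0.15. At 300 ng/ml Cyr61 read -0.55 and 1.47 on the 2 arrays and Ctgf 0.53 and 0.71. Igfbp4 was at 0.64 and 0.88 in Pax5sz2, and its control level ranged over 2.01 on the 6 later arrays, the only member whose control range passed 1. That control level was 7.49 and 7.54 on the Pax5sz2 arrays, but 8.75 to 9.50 on the 10 and 300 ng/ml arrays. The levels in Pax5sz2 RNA, 8.13 and 8.43, lay above the former and below all of the latter. The Igfbp4 ratio in Pax5sz2 is therefore uncertain, and why the control differed was not tested. Igfbp7 was at 0.25, 0.53 and 0.18 with 10 ng/ml, with 300 ng/ml and in Pax5sz2, and Igfbp5 was near background, with 10 of 16 channels above it. The median control range of the members was 0.34, against 0.39 for all features. S100a6 was at 0.58 and 0.57 at the lower doses, with its 2 arrays 0.21 and 0.96 at 10 ng/ml.

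**Figure D3:**
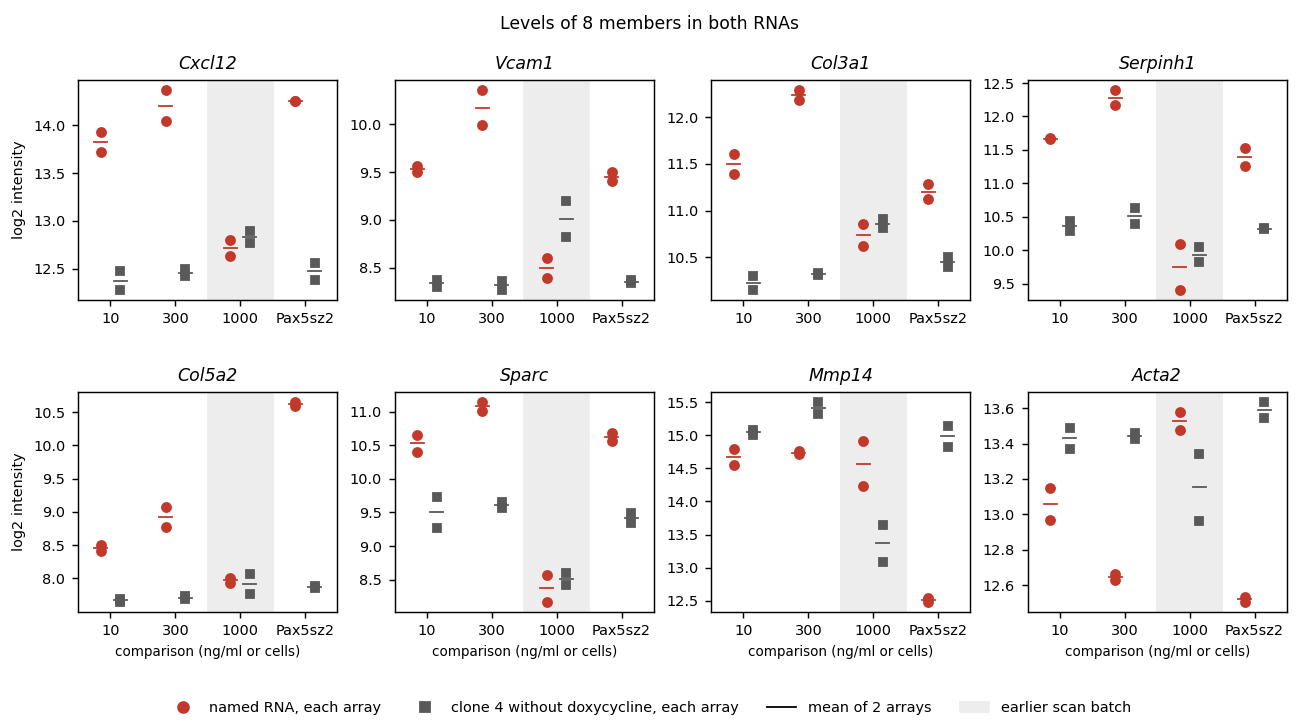
Log2 intensity (y axis) of 8 members in the named RNA (circles, left) and in clone 4 without doxycycline (squares, right) on each array of the 4 comparisons, with a line at the mean of 2 arrays and the earlier scan batch shaded. The control RNA of Cxcl12, Vcam1 and Col5a2 stays within 0.28, 0.10 and 0.24 over the 6 later arrays, and Mmp14 and Acta2 are lower in the named RNA there.

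The split of the 2 arrays at 300 ng/ml followed array position. On array 1 (named RNA in Cy5) the spots well above background in both RNAs (bright spots) of rows 1 to 20 and 21 to 40 had median log2 ratios of -0.87 and -0.49, while the other bands lay between -0.11 and 0.11 and array 2 lay within 0.04 of 0. Of the 10 members in rows 1 to 40, 7 were more than 0.5 lower on array 1 than on array 2 (median difference -1.25), Cyr61, Col6a1, Col6a2, Nid2, Loxl1 (a crosslinking enzyme), Thbs1 (a matricellular protein) and Lox (a crosslinking enzyme). Of the 38 members elsewhere, 1 was (median difference 0.03). None of the 10 members in rows 1 to 40 was called higher at 300 ng/ml, against 10 of the 38 elsewhere, where 0.521% of all features in rows 1 to 40 and 1.49% of those elsewhere were. After subtracting the local median of bright spots, an alternative chosen after seeing the data, the members' median at 300 ng/ml was 0.77 and 11 were higher, with Nid2 and Col6a1 added and Col6a3 lost. Across the 48 members the 2 arrays correlated at r = 0.649 before and 0.888 after this step, as a description over genes of the same 2 arrays.

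**Figure D4:**
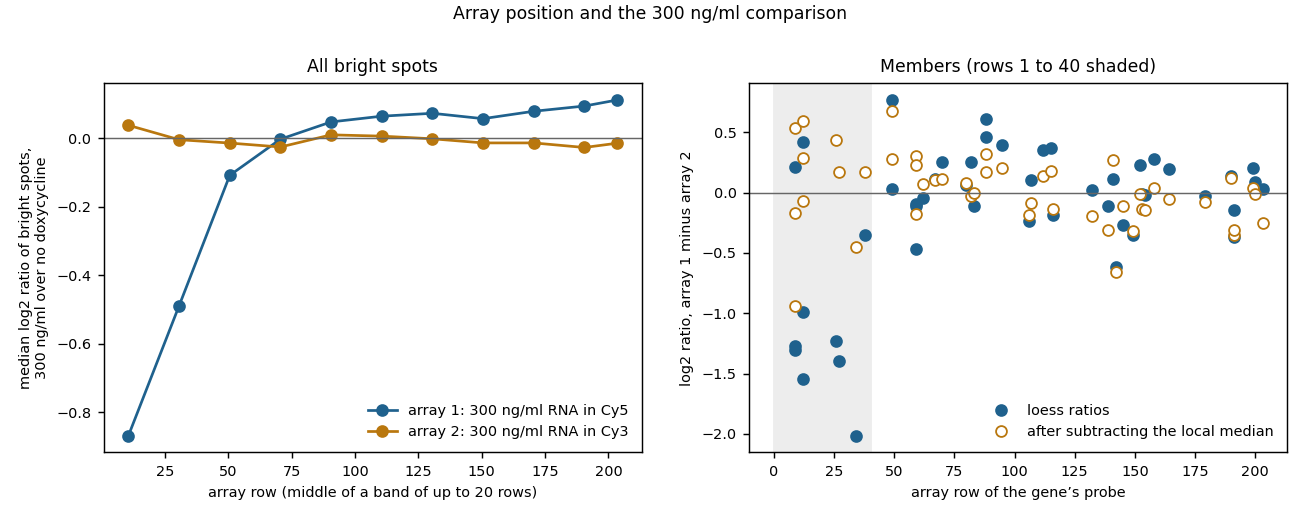
Left, median log2 ratio of bright spots (y axis) by array row (x axis) on the 2 arrays of the 300 ng/ml comparison. Right, difference of the 2 arrays for each member by the row of its probe, before and after subtracting the local median; rows 1 to 40 are shaded, and 7 of their 10 members lie below -0.5 before it.

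On the arrays of the 1000 ng/ml pair, from the earlier scan batch, the control RNA as labelled read differently from that on the 6 later arrays for several members. The control log2 level of Mmp14 averaged 13.37 in that pair, against 15.15 on the later arrays, and that of Sparc 8.51 against 9.51. For Vcam1 it was 9.01 against 8.33 and for Pdgfra 8.03 against 7.35. With the sign turned the other channel would be the control, at 14.57 for Mmp14, 8.37 for Sparc, 8.50 for Vcam1 and 7.47 for Pdgfra. Those levels lie nearer to the later control for Mmp14, Vcam1 and Pdgfra, but not for Sparc. These control differences are therefore as unsettled as the direction of the pair. Pdgfra was at -0.61 and -0.51, Timp1 at -0.62 and -0.47 and Vcam1 at -0.59 and -0.43, the 3 lowest members there as labelled.

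The mean effect over the 3 doses, fitted with limma across all 20127 features (two-sided, Benjamini-Hochberg), called 0 features, with a smallest adjusted p of 0.701. At an unadjusted p under 0.05 it held 1192 features, and 7 members higher and 0 lower. The members' median effect was 0.38, against 0.01 for all features. The fit takes the differences between doses as spread. It leaves out the spread of the shared control and that between the 2 arrays of a dose, which were averaged first. Without the 1000 ng/ml pair, that is, within the later scans, it called 1119 features higher (5.56%) and 1729 lower (8.59%), and 19 members higher and 0 lower, with 1 value for each of 2 doses. The 19 had limma effects from 0.56 for Kitl to 1.60 for Cxcl12, with adjusted p from 0.0380 to 0.0461, and were Cxcl12, Vcam1, Pdgfra, Pdgfrb, Kitl, Col1a1, Col1a2, Col3a1, Col5a2, Col6a1, Fn1, Sparc, Fbn1, Bgn, Timp2, Mmp2, Serpinh1, Tpm2 and S100a6. With the 1000 ng/ml sign turned it called 0 features (smallest adjusted p 0.120).

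Other stromal matrix genes, a list of 68 of which 58 were tested, had smaller medians than the members at both lower doses. At 10 ng/ml 0 were higher and 1 lower (median 0.21), and at 300 ng/ml 5 and 2 (median 0.30). At 1000 ng/ml as labelled 3 were higher and 1 lower (median -0.02), and for Pax5sz2 6 and 4 (median 0.09). Of all features, 0.596%, 1.3%, 1.93% and 2.33% were higher in these comparisons, in the same order. The shares lower were 1.27%, 2.36%, 0.636% and 2.83%. Nid1, a basement membrane linker, was at 0.96 and 1.36 at 10 and 300 ng/ml, the protease gene Adamts1 at 0.83 and 1.36 and the cytokine gene Il6 at 0.96 and 1.30. Mmp13, a collagenase, lay on the same side of 0 as Mmp14 in each comparison, at -1.83, -2.37 and 3.60 at the 3 doses, low to high, and -1.57 in Pax5sz2, with SDs up to 0.30.

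Genes of preadipocytes and adipocytes, the fate open to OP9 cells, included 2 higher and 0 lower of 15 tested at 10 ng/ml. At 300 ng/ml 2 were higher and 1 lower, at 1000 ng/ml 0 and 0, and in Pax5sz2 5 and 0. The shares of all features are those given for the other stromal matrix genes. The list's medians were 0.39, 0.31, 0.05 and 0.81 in these comparisons. Fabp4, a fatty acid carrier, was at 1.39, 1.48, -0.13 and 1.83 in these, and Pparg, the regulator of fat cell formation, at 1.12, 0.65, -0.06 and 1.13. Dlk1, a preadipocyte surface protein, was at -1.45, -1.44, -0.07 and 2.89. The list's summed intensity was 12159 and 11725 with 10 ng/ml, against 6552 and 6814 without, and 17524 and 16283 in Pax5sz2, against 6884 and 7245.

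Markers of other cell types and a response list moved beside the members as follows. The shares of all features given for the other stromal matrix genes belong beside these counts too. Of 18 interferon response genes 10 were higher and 0 lower at 10 and at 300 ng/ml (medians 1.12 and 1.16), 1 and 0 at 1000 ng/ml (median 0.11) and 6 and 0 in Pax5sz2 (median 0.87), with the ubiquitin-like Isg15 at 2.28, 2.43, -0.09 and 1.30. Of 9 tested macrophage markers 1 was above background in all 16 channels. None was past the size at 10 ng/ml or in Pax5sz2, while the mannose receptor gene Mrc1 alone was lower at 300 ng/ml (-1.99) and higher at 1000 ng/ml as labelled (2.07), with medians of the 9 of 0.00, -0.08, 0.13 and 0.00 for the 3 doses and Pax5sz2. Their summed intensity was 4494 and 4150 with 10 ng/ml, against 4316 and 4436, 3037 and 2818 with 300 ng/ml, against 4541 and 4460, and 4811 and 4380 with 1000 ng/ml, against 2731 and 2337. In Pax5sz2 it was 4557 and 4652, against 4432 and 4813. Of 10 endothelial markers 5 were tested, and 3 were above background in 0 channels. Of 18 B precursor markers 1 was higher and 1 lower at 10 ng/ml and 3 and 1 at 300 ng/ml, with medians of -0.47 and -0.30. At 1000 ng/ml as labelled, where 1.93% of all features were higher and 0.636% lower, 1 marker was higher and 4 lower (median -0.20). Their summed intensity was 177018 and 188949 with 10 ng/ml, against 245370 and 229324, and 169451 and 200284 with 300 ng/ml, against 231848 and 226741. In Pax5sz2 2 were higher, the surrogate light chain genes Vpreb1 and Igll1, and 3 were lower. There 10 of 18 were below 0 on both arrays (median -0.21), as were 7106 of the 20127 features. The summed intensity there was 474482 and 462923, against 257755 and 240528, but 239878 and 236393, against 257129 and 239006, without Vpreb1. Of 4 Notch ligands 2 were above and 2 below 0 on both arrays at 10 and at 300 ng/ml (medians 0.03 and 0.04). Jag1 was at 0.87, 1.17 and -0.01 at the 3 doses, low to high, and 0.81 in Pax5sz2, while Jag2 was at -0.54, -1.01 and 1.79, and -0.62 in Pax5sz2. The part of the interferon, adipocyte and B precursor genes in the members' values was not tested.

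Probes of one gene did not always agree. Of the 22 calls of members, 14 had another tested probe, and in 3 of these the other probe was past the size as well: Cxcl12 at 300 ng/ml and in Pax5sz2, and Mmp14 in Pax5sz2. In 11 it lay on the same side of 0 on both arrays, for at least 1 probe, and in 8 every other tested probe was under 0.5 in the called direction. The other probes in these had mean log2 levels of 6.26 to 7.49, apart from Sparc in Pax5sz2 (9.58) and 2 of the Acta2 probes in Pax5sz2 (10.34 and 7.87).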

How the data were processed

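Total RNA was labelled with Cy3 and Cy5 and hybridised to Agilent mouse arrays of 43790 spots. Per the file headers, Feature Extraction 10.5.1.1 made the deposited mean and local background intensity of each spot, its processed intensity and its log10 ratio (red, Cy5, over green, Cy3). Per the submitters' processing notes the software was Agilent Feature Extraction. The deposited series matrix holds those log10 ratios, with the sign changed for arrays with named RNA in Cy3. Headers of the 1000 ng/ml pair give a background multiplier of 2.6 and no detrending, against 13 with detrending elsewhere.

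From the intensities, limma 3.58.1 in R 4.3.3 applied normexp (offset 50) and loess, with control spots at weight 0 and outlier-flagged spots left out (37 to 295 per array), and levels were scaled with Aquantile. Spots of a probe were averaged, and each gene name took its brightest probe. Tested features passed Agilent's background flag for 1 RNA on both dye-swapped arrays in any of the 4 comparisons. Probe positions are those of the files (mm8). Members and lists were chosen with earlier results of these data known. Named were Pax5, every member, and from each other list up to 4 genes with the largest mean ratio at 10 and 300 ng/ml. Vpreb1 and Igll1 were named outside this rule. The rules were tested on simulated data for 20127 features. Figures used matplotlib 3.10.9.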

Additional observations from a re-analysis of the deposited data

Results flagged for a closer look

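Mmp14 passed the size in opposite directions in 2 comparisons with the same kind of control. Its log2 ratio was 1.20 in the 1000 ng/ml pair as labelled (both arrays above 1) and -2.47 in Pax5sz2 (both arrays below -2). The difference between them was not tested, since each is 1 RNA, and with the sign of the 1000 ng/ml pair turned both ratios are negative, at -1.20 and -2.47. The control level of Mmp14 averaged 13.37 in the 1000 ng/ml pair as labelled and 15.15 on the later arrays. With the sign turned the other channel of that pair would be the control, at 14.57. With median centring, and with the detected probes of a gene averaged, Mmp14 was no longer past the size at 1000 ng/ml. No other member was past the size both ways.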

How the results depend on the processing

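No paired analysis was possible because the array numbers mark only the dye orientation and each comparison is 1 RNA. None of the 22 ratios of members past the size changed sign under another background correction, normalization or probe rule. Mmp14 at 1000 ng/ml became -1.20 with the sign turned. Leaving out 1 array could not change a sign, since a call needs both arrays on the same side of 0. Many ratios did move by at least the SD of the 2 arrays: 13 of 22 with processed signals, 15 with median centring and 12 with detected probes averaged. Agilent's processed signals and the series matrix ratios, which hold the same values, gave 11 members higher at 10 ng/ml (median 0.69), 10 higher and 3 lower in Pax5sz2, 2 higher and 1 lower at 1000 ng/ml, a median of 0.84 at 300 ng/ml, and 1065, 1873, 924 and 2188 features past the size at 10, 300, 1000 ng/ml and in Pax5sz2. Median centring gave 2 members higher at 10 ng/ml (median 0.70), 5 at 300 ng/ml, 0 at 1000 ng/ml, and 5 higher and 1 lower in Pax5sz2 (median 0.23, with all features at 0.15), and 148, 478, 193 and 686 features. Its split of features, higher against lower, was 73 and 75 at 10 ng/ml (120 and 256 with loess), 95 and 383 at 300 ng/ml (262 and 474 with loess) and 479 and 207 in Pax5sz2 (469 and 570 with loess). Averaging the detected probes of a gene gave 3 higher at 10 ng/ml (median 0.49), 0 at 1000 ng/ml, and 2 higher and 1 lower in Pax5sz2, where 98, 313 and 370 features were higher and 194, 110 and 418 lower. A size of 1.5-fold gave 16 higher at 10 ng/ml, 18 higher and 2 lower at 300 ng/ml, 3 higher at 1000 ng/ml and 11 higher and 4 lower in Pax5sz2, of 1675, 2515, 1366 and 2812 features. With only features bright in both RNAs the medians were 0.57 at 10 ng/ml and -0.062 at 1000 ng/ml. Subtracting the local median, chosen after seeing the data, gave medians of 0.56 and 0.77 at 10 and 300 ng/ml. With the sign turned, 0 members were higher and 1 lower at 1000 ng/ml, and the median was 0.030. With 1 array alone the counts of members ranged from 6 to 8 higher at 10 ng/ml (medians 0.51 to 0.52), 0 to 1 lower at 300 ng/ml and 1 to 2 higher at 1000 ng/ml, and the features from 557 to 692 at 10 ng/ml and 1097 to 2261 at 300 ng/ml. The mean doxycycline effect called 0 features and 0 members without 10 or 300 ng/ml, and 2848 features and 19 members without 1000 ng/ml. On processed signals 5 members, against 1, had a control level that spanned over 1 on the later arrays. The causes of these changes were not tested. Il7, Lum, Dcn and Igfbp5 lie near background, where ratios are compressed.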
